A study of Arabidopsis thaliana with 22 samples.

Results

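Leaf transcriptomes of 2 Arabidopsis thaliana mutants of the photorespiratory cycle were compared with each other after a move to low CO2. The shm1 line (allele shm1-2) is blocked where mitochondria turn glycine into serine, and the glyk1 line (allele glyk1-1) is blocked at glycerate kinase, the last step of the cycle. Both are T-DNA insertion lines. The comparison used 4 of the 22 libraries of the series, namely the 2 of shm1 and the 2 of glyk1 that the sample titles mark as low CO2 (LC). All plants were grown in air with 1% CO2 (HC), and the LC plants had been moved to 0.038% CO2 at the end of a night. Mature leaves of both kinds of plant were taken 8 h after the light came on. The 2 libraries of each mutant that stayed in HC showed how far the lines differed without the move, and the 3 LC libraries of the wild type showed on which side of the wild type each mutant lay. Each line is represented by 1 allele, so an effect of the mutated gene and any other feature of that line cannot be told apart.

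Photorespiration recovers carbon after Rubisco, the enzyme that fixes CO2, has used oxygen in its place. The product, 2-phosphoglycolate, becomes glycolate in the plastid, glyoxylate and glycine in the peroxisome, and serine in the mitochondrion, where the glycine decarboxylase complex releases CO2 and ammonia and hands a one-carbon unit to serine hydroxymethyltransferase. Serine returns to the peroxisome and is made into hydroxypyruvate and glycerate, and glycerate kinase (GLYK) in the plastid makes 3-phosphoglycerate, which re-enters the Calvin-Benson cycle. In shm1 the mitochondrial form of serine hydroxymethyltransferase that leaves use for this, SHM1, is hit, and photorespiratory serine is not made at the normal rate. In glyk1 the cycle runs to glycerate, which cannot be phosphorylated. Both kinds of mutant are known to need air enriched in CO2 to grow well, because that keeps the flux into the cycle low.

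Read counts per gene were analysed. Summed counts were 194460991 and 65282092 in the shm1 LC libraries and 74997651 and 57687889 in those of glyk1, and the 4 HC libraries of these lines held from 27992658 to 91224563. In the third wild-type LC library 19.1% of the rows were displaced against the gene identifiers and were left out, so the genes concerned were fitted and averaged without it. Spearman correlations of the gene levels were 0.984 between the shm1 LC libraries, 0.986 between the glyk1 LC libraries and 0.921 to 0.950 across the lines. In HC the same values across the lines ran from 0.99 to 0.991. Levels are given as CPM, the counts of a gene for each 1000000 counts of its library after scaling of the libraries (TMM). Differences are given as log2 differences of shm1 minus glyk1, so that 1 is a doubling. Their standard error (SE) was not fitted but taken as the size of the difference divided by the square root of the test's F statistic. Adjusted p-values come from edgeR's quasi-likelihood test with Benjamini-Hochberg adjustment over 20336 loci, with a threshold of 0.05. The labels call the replicates biological duplicates and say no more, so the p-values rest on the spread among these libraries.

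The targeted genes matched the labels. SHM1 (AT4G37930, chr4:17831731-17835017, TAIR10.1) was at 54.4 and 25.5 CPM in the shm1 LC libraries and at 1857 and 1472 CPM in those of glyk1, with 1641 ± 649 CPM (SD, n = 3) in the wild type. GLYK (AT1G80380, chr1:30217116-30220595, TAIR10.1) was at 58.2 and 72.4 CPM in shm1 LC, at 0.626 and 0.900 CPM in glyk1 LC and at 134 ± 51.3 CPM (SD, n = 3) in the wild type. Each gene was far lower in the line that bears its insertion than in the other line and in the wild type, with no overlap. The log2 difference was -5.37 (SE 0.47, adjusted p = 2.97e-06) for SHM1 and 6.43 (SE 0.40, adjusted p = 3.74e-07) for GLYK. In HC SHM1 was at 85.8 and 109.6 CPM in shm1 and at 2158 and 1919 CPM in glyk1 (difference -4.37, adjusted p = 0.000515), and GLYK at 162 and 189 CPM against 1.47 and 1.37 CPM (difference 6.95, adjusted p = 2.75e-07).

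In LC the lines differed at a large share of their genes, and in HC at hardly any. Of the 20336 loci tested, 7764 (38.2%) passed the threshold in LC, of which 3847 (18.9% of those tested) were higher in shm1 and 3917 (19.3%) were lower. Of these, 5861 differed at least 2-fold, 2466 at least 4-fold and 381 at least 16-fold. In HC 4 loci passed (0.0197%), 2 in each direction (0.00983% each), and 195 had an unadjusted p under 0.05. These 4 were SHM1, GLYK, NAP12 and AT1G51580, an RNA-binding KH domain protein. Without shm1 HC replicate 1 the HC count was 1, and without glyk1 HC replicate 1 it was 2. The median size of the log2 difference over all loci was 0.77 in LC and 0.16 in HC. Without shm1 LC replicate 2 the LC count was 4569, without glyk1 LC replicate 2 it was 4655, and with only LC libraries in the fit it was 5035. Because 38.2% of all loci passed, a gene list with about that share of members called does not stand apart from the rest of the transcriptome by its count.

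**Figure D1:**
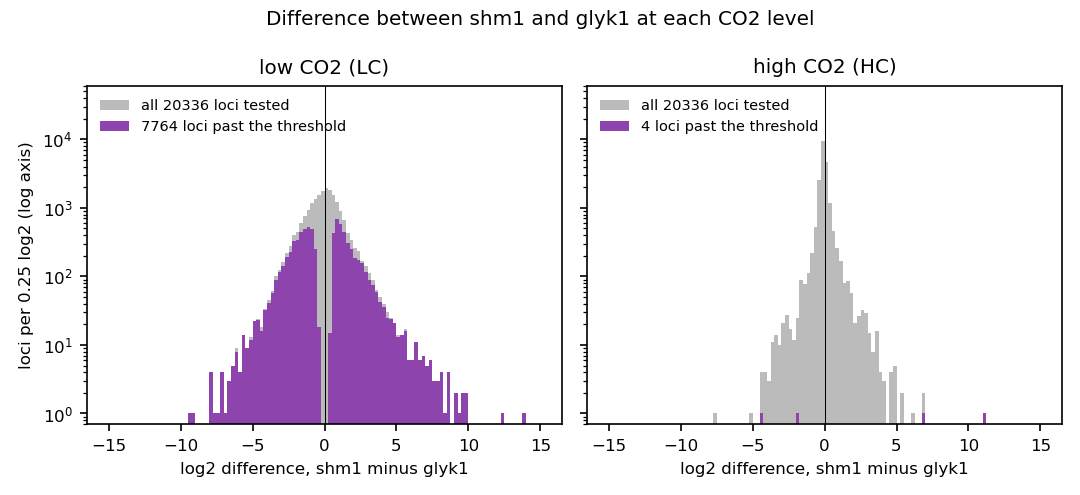
Histograms of the log2 difference, shm1 minus glyk1, over the 20336 loci tested in low CO2 (left) and high CO2 (right), with the number of loci on a log axis. Purple bars are loci past the adjusted threshold, 7764 in low CO2 and 4 in high CO2.

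Whether the difference itself depended on CO2 was tested directly, as the LC difference minus the HC difference. It did at 3729 loci (18.3%), of which 1988 (9.78%) moved towards shm1 and 1741 (8.56%) towards glyk1. With DESeq2 size factors in place of TMM the split was 1653 and 2233. The count was 1830 without shm1 LC replicate 2, 1907 without glyk1 LC replicate 2, 2006 and 1787 without shm1 HC replicates 1 and 2, and 2294 and 1907 without glyk1 HC replicates 1 and 2. The genes with a T-DNA insertion were not among the loci called. SHM1 had a difference of differences of -1.0 (SE 0.56, adjusted p = 0.228) and GLYK of -0.53 (SE 0.46, adjusted p = 0.453), and both were low in their own line at either CO2 level.

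One gene stood apart in shm1 whatever the CO2 level. NAP12 (AT2G37010, chr2:15541389-15546285, TAIR10.1), which encodes a non-intrinsic ABC protein, was at 38.0 and 39.0 CPM in shm1 LC and had no count in either glyk1 LC library. Against a floor of 3 counts over the glyk1 group it was at least 1451-fold higher in shm1 (adjusted p = 6.64e-05). It was at 26.5 and 40.7 CPM in shm1 HC and at 0 and 0.0266 CPM in glyk1 HC, and it was at 0 in all 3 wild-type LC libraries. AT1G51580 was lower in shm1 in both conditions, with a log2 difference of -1.75 in LC (SE 0.20, adjusted p = 1.91e-05) and -1.76 in HC (SE 0.20, adjusted p = 0.00125).

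Several genes of the machinery that turns glycine into serine were lower in shm1 than in glyk1 beyond SHM1 itself. Of the 16 genes listed for this step, all tested, 8 were lower in shm1, 1 was higher and 7 did not pass. SHM1, which bears the insertion in shm1, is among the 8. The median log2 difference, with SHM1 included, was -0.89 against 1.5e-05 over all loci. These are leaf RNA samples, in which fewer cells of a type and less RNA per cell cannot be told apart. The complex has 4 kinds of subunit, named P, H, T and L. GLDP1, the main P-protein that releases CO2 from glycine, was at 719 and 689 CPM in shm1 and at 2567 and 2733 CPM in glyk1. The lines did not overlap, and the difference was -1.91 (SE 0.39, adjusted p = 0.00153). The wild type, with 1593 ± 404 CPM (SD, n = 3), lay between them.

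GDCH, an H-protein that carries the aminomethyl group between the subunits, was at 97.9 and 84.8 CPM in shm1 and at 326 and 332 CPM in glyk1. Both shm1 libraries were below both glyk1 libraries, with a difference of -1.84 (SE 0.30, adjusted p = 0.000293). AT1G11860, annotated as a glycine cleavage T-protein, was at 67.8 and 15.8 CPM against 221 and 214 CPM, a difference of -2.37 (SE 0.63, adjusted p = 0.00812). That call was lost without shm1 LC replicate 2 (adjusted p = 0.0857), the lower of the shm1 libraries. A pair of single hybrid motif proteins of the list was also lower, with log2 differences of -2.35 for AT1G32470 and -1.23 for AT2G35120. BOU, a mitochondrial carrier needed for glycine decarboxylase activity, had a difference of -1.10 (adjusted p = 0.0114), a call lost without shm1 LC replicate 2 (adjusted p = 0.128) or glyk1 LC replicate 1 (0.0533).

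The second P-protein and the L-proteins did not pass the test. GLDP2 had a difference of -0.54 (adjusted p = 0.176), and the lipoamide dehydrogenases LPD1 and LPD2, the L-proteins shared with other complexes, had -0.69 and 0.26. LPD1 passed with the replicate number as a block (adjusted p = 0.0193, and 0.0156 with crossed numbers), with only the compared groups in the fit (0.0442) and without wild-type LC replicate 3 (0.0420). GLDP2 passed with DESeq2 (adjusted p = 0.0384). Among the other serine hydroxymethyltransferases the values went apart. SHM7 was at 152 and 135 CPM in shm1 and at 579 and 413 CPM in glyk1, a difference of -1.78 (SE 0.40, adjusted p = 0.00261). SHM6 went the other way, with 91.4 and 124 CPM against 62.8 and 41.0 CPM and a difference of 1.06 (SE 0.22, adjusted p = 0.00173). The other mitochondrial form, SHM2, had 12.2 and 4.69 CPM in shm1 and 9.00 and 15.2 CPM in glyk1 (difference -0.51, adjusted p = 0.352), so a higher level of SHM2 in the line low in SHM1 was not detected. Without shm1 LC replicate 1 the SHM2 difference was -1.36 and passed (adjusted p = 0.0323). The plastid form SHM3 and the cytosolic form SHM4 had -0.51 and 0.27, and neither passed, though SHM3 did without wild-type LC replicate 3 (-0.59, adjusted p = 0.0428).

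**Figure D2:**
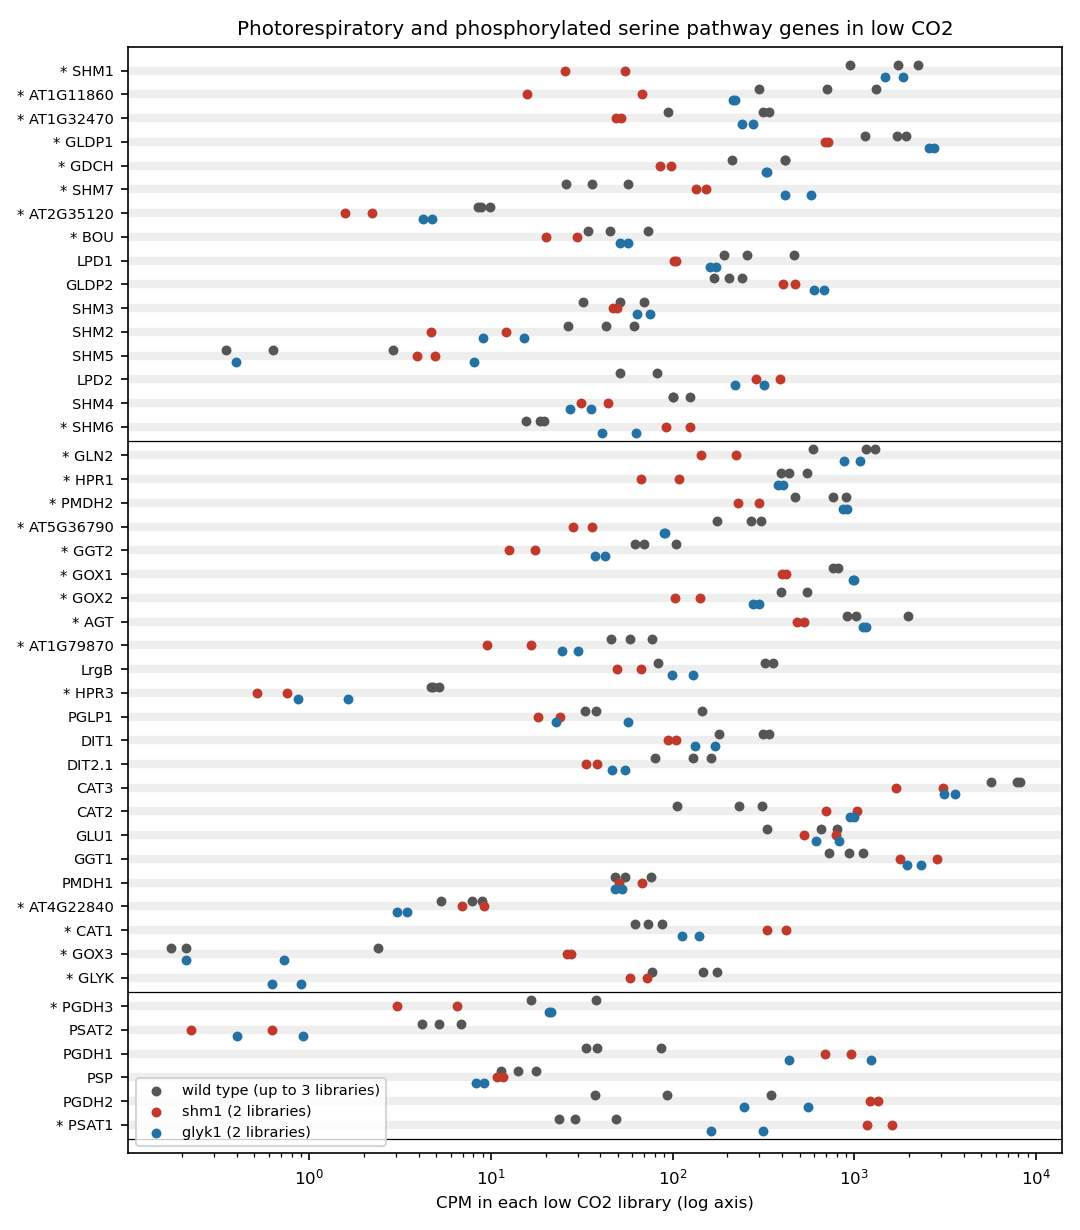
CPM on a log axis in each low CO2 library of the wild type (grey), shm1 (red) and glyk1 (blue). The blocks hold, from the top, glycine to serine conversion, the other photorespiratory genes and the phosphorylated serine pathway, and asterisks mark genes whose shm1 and glyk1 levels differed past the threshold, such as GLDP1 at -1.91 and PSAT1 at 2.56 log2.

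Among the 23 other genes of the cycle and of ammonia refixation, 10 were lower in shm1 and 4 were higher, with a median of -0.91. GLYK, which bears the insertion in glyk1, is among the 4. GLN2, the plastid glutamine synthetase that refixes the ammonia released with CO2, was at 224 and 143 CPM in shm1 and at 1079.9 and 882 CPM in glyk1. The glyk1 libraries were near the wild type (1017 ± 371 CPM, SD, n = 3) and the shm1 libraries were below all of them, with a difference between the lines of -2.41 (SE 0.36, adjusted p = 0.000163). HPR1, the peroxisomal hydroxypyruvate reductase that makes glycerate, was also lowest in the shm1 libraries, with 108 and 66.9 CPM against 379 and 407 CPM and a difference of -2.16 (SE 0.37, adjusted p = 0.000399). PMDH2, a peroxisomal malate dehydrogenase that supplies NADH for that step, differed by -1.75 (adjusted p = 0.000588). AGT, which uses serine as amino donor for glyoxylate, differed by -1.16 (adjusted p = 0.0123), a call lost in 3 alternatives, among them those without shm1 LC replicate 2 (adjusted p = 0.0666) and glyk1 LC replicate 2 (0.0569).

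The glycolate oxidases, which feed glyoxylate and hydrogen peroxide into the peroxisome, split. GOX1 and GOX2, near-identical neighbours whose reads may be split between them, were lower in shm1, with log2 differences of -1.34 and -1.31. Both are among the genes with displaced wild-type rows, and with all rows as deposited their adjusted p was 0.328 and 0.570. GOX3 was at 26.4 and 27.7 CPM in shm1 and at 0.724 and 0.211 CPM in glyk1, a difference of 5.84 (SE 1.0, adjusted p = 0.000429). Both shm1 libraries were far above all of the wild type, at 2.38, 0.209 and 0.173 CPM. The catalases, which remove that peroxide, split too. CAT1 was higher in shm1, with 332 and 421 CPM against 140.4 and 113 CPM (difference 1.58, adjusted p = 0.000103), while CAT2, the main leaf form, and CAT3 had -0.16 and -0.48 and did not pass.

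The remaining steps were mixed. The aminotransferase GGT2 was lower in shm1 (log2 difference -1.39, adjusted p = 0.00291), and GGT1, the main glutamate:glyoxylate aminotransferase, had 0.12 (adjusted p = 0.803). AT5G36790, a HAD family hydrolase that is a near-identical copy of the phosphoglycolate phosphatase gene PGLP1, had -1.48 (adjusted p = 0.00144). PGLP1 itself had -0.91 (adjusted p = 0.208), and reads may be split between these copies. The plastid transporters DIT1 and DIT2.1, which exchange 2-oxoglutarate, glutamate and malate, had -0.61 and -0.49 and did not pass. AT4G22840, of the sodium bile acid symporter family, was higher in shm1 by 1.32 (adjusted p = 0.00866), a call lost without shm1 LC replicate 1 (adjusted p = 0.0570) or glyk1 LC replicate 1 (0.0648).

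Serine can also be made from 3-phosphoglycerate by the phosphorylated pathway in the plastid, through PGDH, PSAT and PSP enzymes. Its aminotransferase PSAT1 was at 1609.5 and 1170.4 CPM in shm1, at 314 and 162 CPM in glyk1 and at 33.9 ± 13.3 CPM (SD, n = 3) in the wild type. Every library of both mutants was above all of the wild type, and both shm1 libraries were above both of glyk1. The difference between the lines was 2.56 (SE 0.44, adjusted p = 0.000424). The dehydrogenases did not move together. PGDH3 was lower in shm1 (log2 difference -2.21, adjusted p = 0.00168, and 0.169 with all rows as deposited). PGDH1 was at 960.0 and 689.7 CPM in shm1 and at 1243 and 438 CPM in glyk1, where the libraries disagreed, and the difference was -0.017 (adjusted p = 0.982). It was 0.92 without glyk1 LC replicate 1 (adjusted p = 0.220). PGDH2 had 1.69 (adjusted p = 0.0991, and 0.0410 with only the compared groups in the fit) and the phosphatase PSP 0.38 (adjusted p = 0.190). In all, 1 of the 6 genes was higher and 1 was lower, and the share called, 33.3%, is under the 38.2% of all loci.

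Most called genes of cysteine and tryptophan synthesis, pathways that draw on serine, were higher in shm1. Of 9 listed genes, 5 were higher and 1 was lower, with a median of 1.22. Not all of the listed enzymes take serine itself as a substrate, and ASA1 and TSA1 do not. SERAT2;1, a serine acetyltransferase that commits serine to cysteine, was at 1176 and 1579.7 CPM in shm1 and at 279 and 179.7 CPM in glyk1 (difference 2.60, SE 0.38, adjusted p = 0.000117). TSB2, a tryptophan synthase subunit that joins indole to serine, was at 182 and 109.9 CPM against 29.2 and 18.2 CPM (difference 2.63, SE 0.53, adjusted p = 0.00135). The shm1 libraries were above the glyk1 libraries for both genes. SERAT2;2 had 1.72, a call lost with all rows as deposited (adjusted p = 0.0733). ASA1, which opens the tryptophan pathway, had 1.22, a call lost in 3 alternatives, among them those without shm1 LC replicate 1 (adjusted p = 0.0716) and glyk1 LC replicate 2 (0.154), and the tryptophan synthase subunit TSA1 had 1.5, a call lost in 4 alternatives, among them those without shm1 LC replicate 1 (adjusted p = 0.124), shm1 LC replicate 2 (0.0601) and glyk1 LC replicate 2 (0.243). The exception, SERAT3;2, had -2.16, a call lost in 3 alternatives, among them those without shm1 LC replicate 2 (adjusted p = 0.0911) and glyk1 LC replicate 2 (0.0516). The number called over the list was 3 without glyk1 LC replicate 2.

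The one-carbon unit that glycine decarboxylase passes to serine can also be handled as formate. FDH, the mitochondrial formate dehydrogenase, was at 911 and 879 CPM in shm1 and at 207 and 219.8 CPM in glyk1. The glyk1 libraries were near the wild type (220.3 ± 48.4 CPM, SD, n = 3), and the difference between the lines was 2.08 (SE 0.48, adjusted p = 0.00358). MTHFR2, a methylenetetrahydrofolate reductase, and AT5G47435, a putative formyltetrahydrofolate deformylase, were lower in shm1, with log2 differences of -1.05 and -1.08. Of the 9 folate genes tested, 1 was higher and 3 were lower, a share of 44.4% beside 38.2% of all loci.

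Nitrogen genes went both ways. Among 16 genes of ammonium and nitrate assimilation, 4 were higher and 2 were lower in shm1, a share near that of all loci. GLN1;3, a cytosolic glutamine synthetase, was at 114 and 74.6 CPM in shm1 and at 17.4 and 21.3 CPM in glyk1 (difference 2.22, SE 0.46, adjusted p = 0.00202), opposite in direction to the plastid form GLN2. GLU2, a ferredoxin-dependent glutamate synthase, was at 76.1 and 93.4 CPM against 14.8 and 15.6 CPM (difference 2.41, adjusted p = 1.44e-05), while the photorespiratory form GLU1 had -0.11 (adjusted p = 0.832). The NADH-dependent form GLT1 differed by 2.00 (adjusted p = 0.000538). The asparagine synthetase ASN2 was lower in shm1 (log2 difference -2.02, adjusted p = 0.000765).

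Photosynthesis genes were lower in shm1 than in glyk1 as a block. Of 20 light harvesting proteins, 15 were lower in shm1 and 0 higher (median -2.34), and of 22 photosystem subunits 19 were lower and 0 higher (median -2.07). LHCB1.3, a major antenna protein of photosystem II with near-identical copies, was at 1848 and 518 CPM in shm1, at 9273 and 9967 CPM in glyk1 and at 23542 ± 14935 CPM (SD, n = 3) in the wild type. All 4 mutant libraries were below the wild-type mean, and both shm1 libraries were below both of glyk1, with a difference between the lines of -3.01 (SE 0.61, adjusted p = 0.00131). PSAK, a photosystem I subunit, was at 183 and 64.6 CPM against 1121 and 948 CPM (difference -3.05, SE 0.51, adjusted p = 0.000358), and here glyk1 was close to the wild type at 1096 ± 543 CPM (SD, n = 3). LHCA6, an antenna protein of photosystem I, was at 6.43 and 0.928 CPM against 44.0 and 42.2 CPM (difference -3.52, adjusted p = 0.00272).

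The spread between the shm1 libraries was wide for these genes, and replicate 2 was the lower one for each gene named in the previous paragraph. The summed level of the 20 antenna genes was 10666 and 3994 CPM in shm1 and 39148 and 39462 CPM in glyk1. Without shm1 LC replicate 2, 7 of the antenna genes and 13 of the photosystem genes passed, and without its replicate 1 19 and 19 did. The list medians stayed below 0 in every alternative, from -3.04 to -1.83 for the antenna and from -2.62 to -1.84 for the photosystems.

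Genes of CO2 fixation followed the same direction. Of 23 Calvin-Benson cycle genes, 17 were lower in shm1 and 2 were higher (median -2.01). HCEF1, the plastid fructose-1,6-bisphosphatase, was at 58.1 and 26.8 CPM in shm1 and at 315 and 299 CPM in glyk1 (difference -2.93, SE 0.48, adjusted p = 0.000354). RBCS2B, a Rubisco small subunit gene with near-identical copies, was at 225 and 111 CPM against 1529 and 1422 CPM (difference -3.13, adjusted p = 0.00251). For both genes, picked from the list for the size of their difference, the lines did not overlap. The 2 genes that were higher in shm1 were TKL2, a transketolase (1.70, adjusted p = 7.20e-05), and CP12-2, a regulator of the cycle (0.86, adjusted p = 0.0270). The CP12-2 call was lost in 4 alternatives, among them those without shm1 LC replicate 2 (adjusted p = 0.0974) and glyk1 LC replicate 1 (0.204). TKL1, the main transketolase of leaves, had -0.094 and did not pass.

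Chlorophyll synthesis was lower and chlorophyll breakdown mixed. Of 16 synthesis genes 9 were lower in shm1 and 1 was higher (median -1.53). CHLI2, a subunit of the magnesium chelatase, was at 3.55 and 0.742 CPM in shm1 and at 14.3 and 18.6 CPM in glyk1 (difference -2.89, adjusted p = 0.00206), with 83.4 ± 41.5 CPM (SD, n = 3) in the wild type. CAO, which makes chlorophyll b, was the one that was higher, by 1.06 (adjusted p = 0.0144), a call lost in 4 alternatives, among them those without shm1 LC replicate 1 (adjusted p = 0.173), glyk1 LC replicate 1 (0.0875) and glyk1 LC replicate 2 (0.0613). The number of synthesis genes called fell to 4 without shm1 LC replicate 2 and to 5 without glyk1 LC replicate 2. SGR1, which starts chlorophyll breakdown by removing magnesium, was at 219 and 235 CPM in shm1, at 89.9 and 87.3 CPM in glyk1 and at 17.7 ± 8.78 CPM (SD, n = 3) in the wild type. The difference between the lines was 1.37 (SE 0.35, adjusted p = 0.00637, and 0.0514 without glyk1 LC replicate 2). NOL, a chlorophyll b reductase, was lower in shm1 (log2 difference -1.77, adjusted p = 0.00360).

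**Figure D3:**
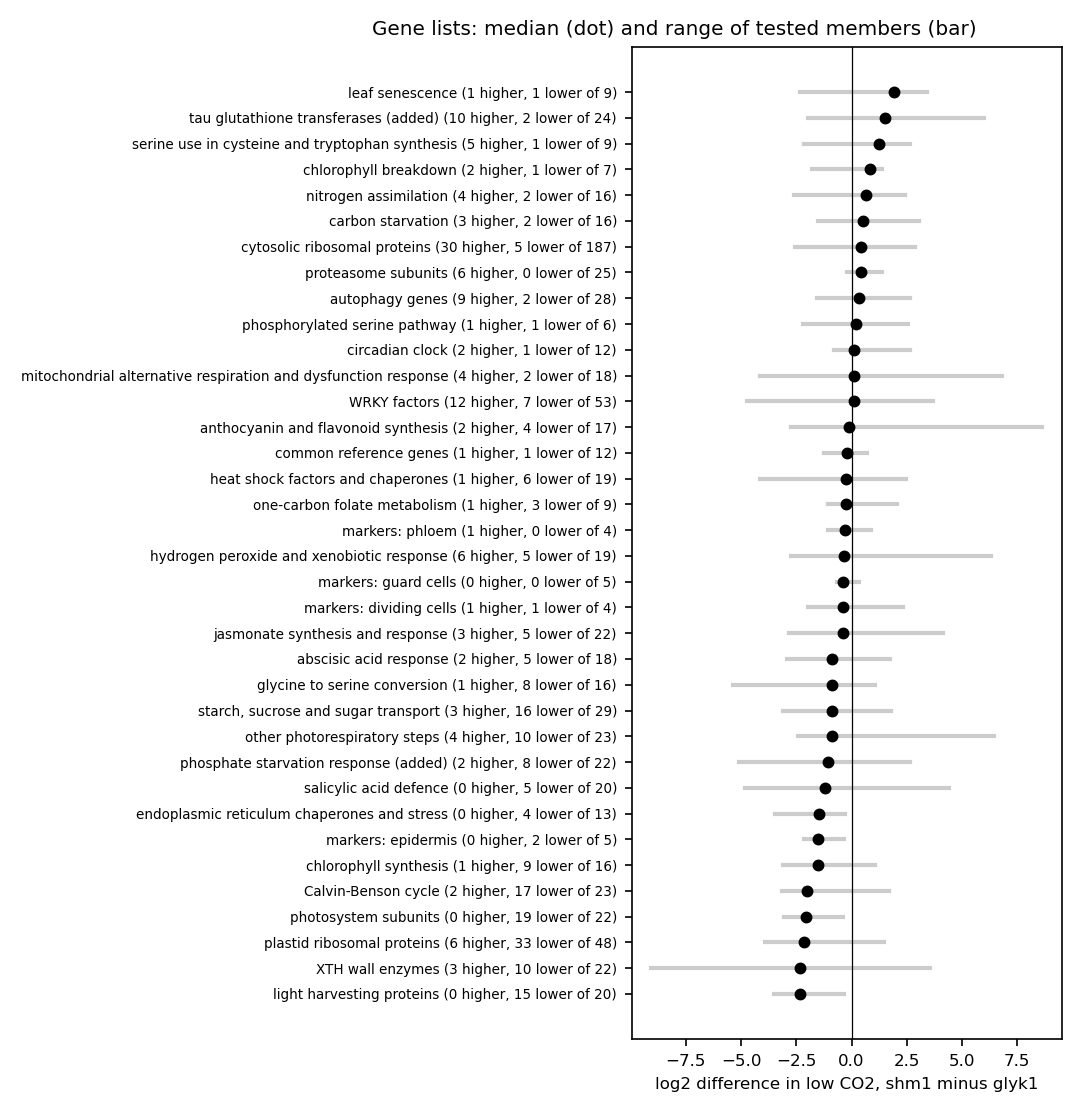
Median (dot) and range over tested members (bar) of the log2 difference, shm1 minus glyk1, in low CO2 for each gene list with at least 4 genes tested, with the numbers called in each direction beside the name. Light harvesting proteins lie lowest at -2.34, and the lists marked as added were chosen after their values were seen.

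Protein synthesis separated by compartment. Of 48 ribosomal protein genes annotated as plastid, 33 were lower in shm1 and 6 were higher (median -2.15). RPL21C was at 12.6 and 2.62 CPM in shm1 and at 119 and 113 CPM in glyk1 (difference -3.92, SE 0.62, adjusted p = 0.000232), and PRPL11 was at 11.6 and 2.47 CPM against 84.9 and 85.1 CPM (difference -3.57, adjusted p = 0.000458). Both shm1 libraries were below both glyk1 libraries for these members, which were named after their values were seen. Of 187 genes annotated as cytosolic ribosomal proteins, 30 were higher in shm1 and 5 were lower (median 0.42), a smaller share than the 38.2% of all loci. That count was 9 in both directions together without shm1 LC replicate 2 and 10 without glyk1 LC replicate 1. These families were taken by the wording of the annotation, and the compartment of single members was not checked.

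Lists of protein and organelle breakdown are given beside all loci, of which 18.9% were higher and 19.3% lower in shm1. Of 28 autophagy genes, 9 were higher in shm1 and 2 were lower (median 0.33), and the share called, 39.3%, is near the 38.2% of all loci. ATG8B, one of the small proteins that coat autophagosomes, was at 97.4 and 129.7 CPM in shm1 and at 18.6 and 17.4 CPM in glyk1 (difference 2.66, SE 0.46, adjusted p = 0.000470). Of 25 proteasome subunits 6 were higher and 0 were lower (median 0.42), and the share called, 24%, is below it. Without 1 library the calls ranged from 1 (glyk1 LC replicate 2) to 6 (glyk1 LC replicate 1) for the proteasome, with 2 without shm1 LC replicate 2, and from 7 (shm1 LC replicate 2, and the same without glyk1 LC replicate 2) to 10 for autophagy.

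Starch metabolism was lower in shm1 and some sugar transport was higher. Of 29 genes 16 were lower and 3 were higher (median -0.90). PGM1, the plastid phosphoglucomutase that starch synthesis needs, was at 17.4 and 7.01 CPM in shm1, at 94.4 and 89.1 CPM in glyk1 and at 155 ± 49.7 CPM (SD, n = 3) in the wild type (difference between the lines -2.90, SE 0.40, adjusted p = 7.81e-05). GBSS1, the starch synthase that makes amylose, was at 29.7 and 12.2 CPM against 176 and 188 CPM (difference -3.11, adjusted p = 0.0104, and 0.0850 without shm1 LC replicate 2). For GBSS1 the glyk1 libraries stood above the wild type (23.2 ± 25.4 CPM, SD, n = 3) and the shm1 libraries were near it. STP13, a hexose importer of the plasma membrane, was at 3363 and 4024 CPM in shm1 and at 1309.6 and 819 CPM in glyk1 (difference 1.8, SE 0.40, adjusted p = 0.00265). SUS1, a sucrose synthase, was higher in shm1 by 1.43 (adjusted p = 0.0467), a call lost in 10 alternatives, among them those without shm1 LC replicate 2 (adjusted p = 0.297) and glyk1 LC replicate 2 (0.303).

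The 12 genes most strongly lower in shm1, among called genes that have a symbol in the annotation and at least 20 CPM in both glyk1 libraries, were XTH19, ATPMEPCRB, TCH4, DREB26, EXLA1, PHI-1, EXO, XTH18, XTR6, AGP18, AGP21 and SHM1. TCH4, a xyloglucan endotransglucosylase known for its response to touch, was at 14.1 and 10.2 CPM in shm1, at 2079.9 and 2541 CPM in glyk1 and at 17.6 ± 10.6 CPM (SD, n = 3) in the wild type. Both glyk1 libraries were far above every other library named, and the difference between the lines was -7.56 (SE 0.62, adjusted p = 1.71e-06). Against the wild type the log2 difference was 7.05 in glyk1 (adjusted p = 6.13e-08) and -0.51 in shm1 (adjusted p = 0.309). EXLA1, an expansin-like wall protein, was at 2.08 and 1.06 CPM in shm1 and at 173 and 267 CPM in glyk1 (difference -7.17, SE 0.69, adjusted p = 8.12e-06). EXO, a wall protein linked to brassinosteroid-promoted growth, was at 4.46 and 3.71 CPM against 526 and 550.4 CPM (difference -7.03, adjusted p = 1.02e-05). The order was the same for each of them. They were picked for the size of their difference, so the lack of overlap between the lines adds no support.

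XTH19 was at 0.374 and 0 CPM in shm1 and at 91.0 and 159 CPM in glyk1 (difference -9.06, SE 1.26, adjusted p = 9.47e-05). Its neighbour XTH18 was at 14.5 and 2.23 CPM against 777 and 1019 CPM (difference -6.73, adjusted p = 0.000285), and reads may be split between these similar genes. XTR6 was at 3.97 and 4.23 CPM against 189 and 431 CPM (difference -6.23, adjusted p = 4.85e-05). These enzymes cut and rejoin xyloglucan in the wall, and over the family 10 of 22 genes were lower in shm1 and 3 were higher (median -2.33). Relative to the wild type the family median was -0.87 in shm1 and 2.04 in glyk1. The count called was 8 without shm1 LC replicate 2 and 8 without glyk1 LC replicate 2. XTH29, by contrast, was higher in shm1 by 3.54 (adjusted p = 0.00337).

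Other genes at this end of the comparison were ATPMEPCRB, a pectin methylesterase gene, with 1.39 and 0.0186 CPM in shm1 and 151 and 191 CPM in glyk1 (difference -7.78, adjusted p = 0.000154). PHI-1, a phosphate-induced gene related to EXO, had 1.77 and 1.8 CPM against 237 and 281 CPM (difference -7.17, adjusted p = 5.63e-05). DREB26, a transcription factor of the ERF/AP2 family, had 0.192 and 0.241 CPM against 37.4 and 39.7 CPM (difference -7.48, adjusted p = 1.27e-05). Again the glyk1 libraries stood above both the shm1 and the wild-type libraries, whose means were 6.56, 0.50 and 0.396 CPM in the same order of genes. The arabinogalactan proteins AGP18 and AGP21, which sit at the cell surface, were lower in shm1, with log2 differences of -6.11 and -6.03, and against the wild type they were at -3.53 and -3.21 in shm1 and at 2.59 and 2.82 in glyk1.

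**Figure D4:**
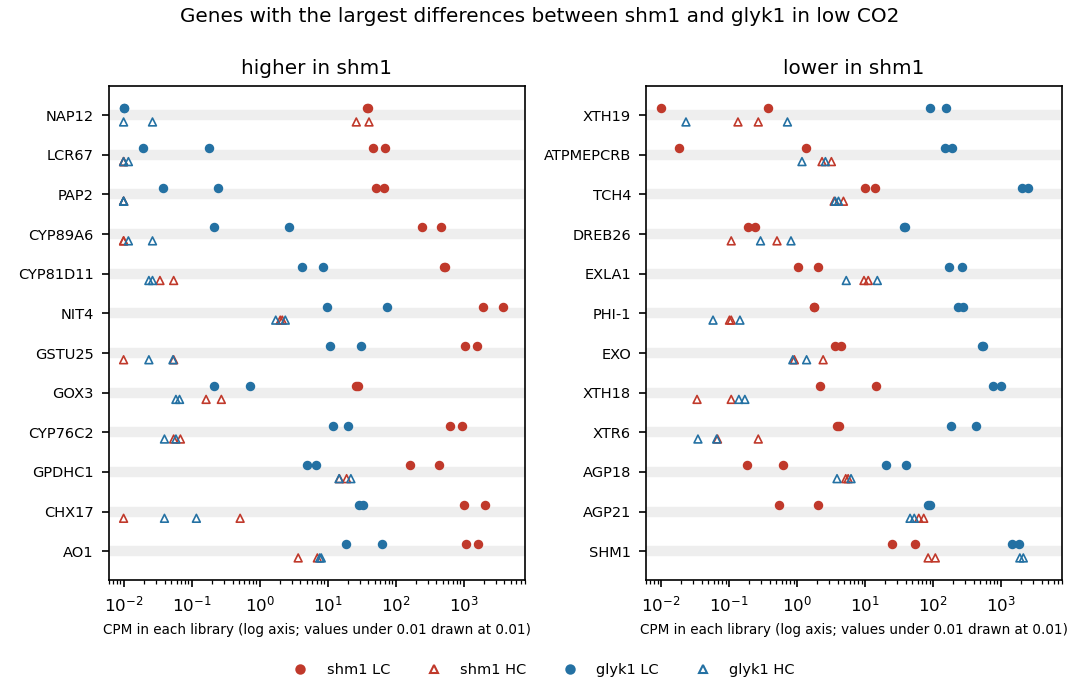
CPM on a log axis in each shm1 (red) and glyk1 (blue) library, in low CO2 (filled circles) and high CO2 (open triangles), for the 12 genes with the largest differences in each direction that have a symbol in the annotation and reach 20 CPM, which leaves out GLYK, a locus with no symbol there. Only NAP12 and SHM1 of these genes differed past the threshold in high CO2, while TCH4 was at -7.56 log2 in low CO2 and 0.12 in high CO2.

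The 250 bases before the annotated start of these genes were read from the RefSeq sequence of TAIR10.1 and searched on both strands for CGCGTT, an element known from genes that respond rapidly to wounding and other stress, where CAMTA factors bind. It was found in 3 of the 12 genes that were most strongly lower in shm1, in 0 of the 12 that were most strongly higher and in 2.72% of 25471 such windows of the genome. The 3 windows are shown because they belong to genes that were low in shm1 and high in glyk1, with the element in capitals on either strand. They lie at chr3:16895916-16896165 (plus strand) for EXLA1, chr4:14827212-14827461 (minus strand) for XTH18 and chr1:12851733-12851982 (plus strand) for PHI-1.
EXLA1: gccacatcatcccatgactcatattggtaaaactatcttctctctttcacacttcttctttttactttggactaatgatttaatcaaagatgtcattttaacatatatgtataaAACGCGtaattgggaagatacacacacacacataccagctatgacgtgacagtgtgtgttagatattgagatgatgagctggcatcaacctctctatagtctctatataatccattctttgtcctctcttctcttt
XTH18: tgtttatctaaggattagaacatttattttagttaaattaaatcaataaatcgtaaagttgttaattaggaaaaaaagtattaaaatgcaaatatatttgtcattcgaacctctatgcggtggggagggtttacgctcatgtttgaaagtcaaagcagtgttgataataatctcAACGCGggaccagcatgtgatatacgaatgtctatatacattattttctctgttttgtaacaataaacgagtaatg
PHI-1: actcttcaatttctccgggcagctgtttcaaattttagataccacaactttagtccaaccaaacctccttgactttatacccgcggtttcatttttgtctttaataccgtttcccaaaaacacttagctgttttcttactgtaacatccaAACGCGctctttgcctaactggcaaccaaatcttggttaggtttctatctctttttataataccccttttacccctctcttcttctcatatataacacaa
A match describes these letters and does not show that a factor binds there.

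The 12 genes most strongly higher in shm1 by the same rule were NAP12, LCR67, PAP2, CYP89A6, CYP81D11, NIT4, GSTU25, GOX3, CYP76C2, GPDHC1, CHX17 and AO1. GLYK, whose locus has no symbol in the annotation, is described above. CYP81D11, a cytochrome P450 known to respond to xenobiotics and reactive oxylipins, was at 522 and 536 CPM in shm1 and at 8.53 and 4.16 CPM in glyk1. It was at 0.172 ± 0.151 CPM (SD, n = 2) in the wild type, below both mutants, and the difference between the lines was 6.31 (SE 0.50, adjusted p = 2.33e-06). GSTU25, a tau class glutathione transferase, was at 1043 and 1588 CPM in shm1 and at 31.2 and 10.8 CPM in glyk1 (difference 5.98, SE 1.03, adjusted p = 0.000479). Its neighbour GSTU24 is similar in sequence, so reads may be split between them. GSTU24 was at 1606 and 2487 CPM against 219 and 60.7 CPM (difference 3.88, adjusted p = 0.00771), a call lost without glyk1 LC replicate 2 (adjusted p = 0.0865). In each case the lowest shm1 library lay far above the highest of glyk1, but these genes were named with their differences known.

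NIT4, a nitrilase that detoxifies beta-cyanoalanine, was at 1915 and 3813 CPM in shm1 and at 75.1 and 9.75 CPM in glyk1 (difference 6.09, SE 1.07, adjusted p = 0.000542). Its glyk1 libraries differed from each other by more than the shm1 libraries did, and the wild type was at 3.68 ± 1.83 CPM (SD, n = 3). PAP2, a myb factor that switches on anthocyanin synthesis, was at 67.5 and 51.0 CPM against 0.247 and 0.0383 CPM (difference 8.64, SE 0.92, adjusted p = 4.96e-05). GPDHC1, a cytosolic glycerol-3-phosphate dehydrogenase, was at 166 and 440.3 CPM against 6.77 and 4.90 CPM (difference 5.63, adjusted p = 3.74e-06). AO1, an aldehyde oxidase, was at 1098 and 1606 CPM against 64.1 and 18.5 CPM (difference 5.04, adjusted p = 0.000758), and CHX17, a cation/H+ exchanger, was at 1015 and 2055 CPM against 28.5 and 33.7 CPM (difference 5.63, adjusted p = 0.00265). None of these genes overlapped between the lines, but they were picked for the size of their difference, so this adds no support. The P450 genes CYP89A6 and CYP76C2 and LCR67, a small cysteine-rich protein of the defensin family, were higher in shm1 by 7.95, 5.66 and 9.09 log2. In LCR67 and PAP2 a few counts stand behind the glyk1 values, so the size of their difference is uncertain.

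TGACG, the core that TGA factors bind in genes of xenobiotic detoxification, was searched in the same windows on both strands. It was found in 4 of the 12 genes that were most strongly higher in shm1, in 2 of the 12 that were most strongly lower (one of them SHM1) and in 18.9% of all windows, and a TGACG preceded by T overlaps the W-box core TTGAC. Windows of 3 of the 4 are shown, because these genes were high in shm1 and low in glyk1, with the core in capitals on either strand. They lie at chr3:10790554-10790803 (minus strand) for CYP81D11, chr1:5871774-5872023 (plus strand) for GSTU25 and chr5:7378937-7379186 (plus strand) for NIT4.
CYP81D11: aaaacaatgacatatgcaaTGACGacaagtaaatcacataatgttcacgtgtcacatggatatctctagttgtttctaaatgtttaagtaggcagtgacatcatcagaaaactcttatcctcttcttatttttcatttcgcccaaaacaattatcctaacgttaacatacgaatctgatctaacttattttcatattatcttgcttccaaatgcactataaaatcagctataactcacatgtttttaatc
GSTU25: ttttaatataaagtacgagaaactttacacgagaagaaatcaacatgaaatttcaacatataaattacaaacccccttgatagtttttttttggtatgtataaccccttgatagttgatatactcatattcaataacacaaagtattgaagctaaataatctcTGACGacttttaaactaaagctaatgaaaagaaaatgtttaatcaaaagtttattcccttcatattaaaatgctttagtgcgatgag
NIT4: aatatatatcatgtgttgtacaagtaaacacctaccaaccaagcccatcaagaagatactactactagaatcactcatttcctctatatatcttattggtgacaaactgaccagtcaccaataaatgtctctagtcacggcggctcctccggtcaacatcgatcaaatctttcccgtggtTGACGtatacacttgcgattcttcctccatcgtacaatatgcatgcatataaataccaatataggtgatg
The fourth gene was PAP2, and the same limit applies to these matches. Further motifs were searched in the same windows. The W-box core TTGAC was found in 7 of the 12 higher genes, 9 of the 12 lower genes and 45.05% of all windows. For the G-box CACGTG these values were 3, 0 and 6.83%, and for GNATATNC, named P1BS, they were 1, 2 and 5.44%.

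Over the whole list of hydrogen peroxide and xenobiotic response genes, 6 of 19 were higher in shm1 and 5 were lower (median -0.32). The 6 that were higher were CYP81D11 and the tau glutathione transferases GSTU1, GSTU2, GSTU10, GSTU24 and GSTU25. The 5 that were lower act in making or removing reactive oxygen. RBOHF, an NADPH oxidase that makes superoxide outside the cell, was at 19.8 and 12.3 CPM in shm1 and at 84.0 and 90.0 CPM in glyk1 (difference -2.43, SE 0.33, adjusted p = 7.53e-05). RBOHD, its close relative, had -1.65. The superoxide dismutase FSD1 had -1.47, a call lost with only LC libraries in the fit (adjusted p = 0.0523). APX1, the cytosolic ascorbate peroxidase, had -1.47, a call lost in 6 alternatives, among them those without shm1 LC replicate 1 (adjusted p = 0.0987), shm1 LC replicate 2 (0.137), glyk1 LC replicate 1 (0.179) and glyk1 LC replicate 2 (0.0569). The superoxide dismutase CSD2 had -2.72, a call lost in 7 alternatives, among them those without shm1 LC replicate 1 (adjusted p = 0.10), shm1 LC replicate 2 (0.192), glyk1 LC replicate 1 (0.102) and glyk1 LC replicate 2 (0.0787). Both lines were well above the wild type over this list, with medians of 5.46 in shm1 and 5.29 in glyk1.

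Salicylic acid defence genes that passed were all lower in shm1. Of 20 listed genes, 5 were lower and 0 were higher (median -1.20), a smaller share than the 38.2% of all loci. The 5 were PAD4, EDS1, NPR1, WRKY38 and WRKY62. WRKY38 had -2.63, a call lost in 5 alternatives, among them those without shm1 LC replicate 1 (adjusted p = 0.166), shm1 LC replicate 2 (0.118) and glyk1 LC replicate 2 (0.421), and without the last of these libraries its difference was -1.21. WRKY62 had -4.33, a call lost in 7 alternatives, among them those without shm1 LC replicate 1 (adjusted p = 0.0679), shm1 LC replicate 2 (0.223), glyk1 LC replicate 1 (0.0751) and glyk1 LC replicate 2 (0.141). PAD4, a lipase-like regulator upstream of salicylic acid, was at 16.3 and 21.1 CPM in shm1 and at 370.4 and 633 CPM in glyk1 (difference -4.82, SE 0.62, adjusted p = 6.49e-05). In the 2 wild-type libraries used for it the mean was 44.7 CPM (SD 21.9), between the lines. Its partner EDS1 was at 33.1 and 34.9 CPM against 155 and 260.2 CPM (difference -2.68, adjusted p = 0.00157), a call lost with all rows as deposited (adjusted p = 0.138). SAG101, a related lipase-like gene that is counted in the senescence list and not among the 5, differed by -1.82 (adjusted p = 0.00328). The salicylic acid receptor NPR1 differed by -1.22 (adjusted p = 0.00145). The output gene PR1 was at 138 and 54.7 CPM in shm1 and at 1.0 and 527 CPM in glyk1, so that the glyk1 libraries differed from each other more than the lines did. ALD1 and FMO1, which make pipecolic acid and its hydroxylated form, had 4.42 and 3.30 and did not pass (adjusted p = 0.0682 and 0.209). ALD1 passed in 4 alternatives and FMO1 in 1, that with only the compared groups in the fit.

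Jasmonate genes went both ways. Of 22 genes 5 were lower in shm1 and 3 were higher (median -0.39). That share is near the 38.2% of all loci. All 5 that were lower act in jasmonate synthesis. AOS, the allene oxide synthase, was at 257 and 116 CPM in shm1 and at 1302 and 975 CPM in glyk1 (difference -2.60, SE 0.56, adjusted p = 0.00215), and LOX3 and OPR3 had -2.35 and -2.23. AOC2 had -2.10, a call lost in 2 alternatives, among them those without shm1 LC replicate 2 (adjusted p = 0.0618), and AOC3 had -2.81, a call lost in 7 alternatives, among them those without shm1 LC replicate 1 (adjusted p = 0.0852), shm1 LC replicate 2 (0.235), glyk1 LC replicate 1 (0.120) and glyk1 LC replicate 2 (0.0804). The 3 that were higher were the repressor JAZ8, at 30.9 and 24 CPM against 3.18 and 2.84 CPM (difference 3.2, adjusted p = 0.000377), the ERF factor ORA59 and its target PDF1.2, a defensin. ORA59 had 2.86, a call lost in 6 alternatives, among them those without shm1 LC replicate 1 (adjusted p = 0.0831), shm1 LC replicate 2 (0.125) and glyk1 LC replicate 2 (0.244), and PDF1.2 had 4.12, a call lost in 5 alternatives, among them those without shm1 LC replicate 2 (adjusted p = 0.102), glyk1 LC replicate 1 (0.0699) and glyk1 LC replicate 2 (0.186). Leaving out shm1 LC replicate 2 reduced the calls over the list to 4, and leaving out glyk1 LC replicate 2 to 5.

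Genes of alternative respiration went both ways. Of 18 genes of alternative respiration and mitochondrial dysfunction, 4 were higher in shm1 and 2 were lower (a share near that of all loci, median 0.11, from -0.034 to 0.36 over the alternatives). AOX1A, the main alternative oxidase, was at 1525 and 1614 CPM in shm1 and at 2140.3 and 1615 CPM in glyk1 (difference -0.33, adjusted p = 0.549), and the higher shm1 library was level with the lower glyk1 library. DIC2, a mitochondrial dicarboxylate carrier, was at 13.7 and 13.2 CPM against 229 and 248 CPM (difference -4.14, SE 0.43, adjusted p = 8.75e-06). NDB4, an external NAD(P)H dehydrogenase, went the other way, at 13 and 10.3 CPM against 0.642 and 0.785 CPM (difference 4.04, adjusted p = 7.12e-05). NDB3 and AOX1B, which were at or under 3.06 CPM in every library of the pair, were also higher, and the AOX1B call was lost with DESeq2 (adjusted p = 0.198), with all rows as deposited (0.183) and without glyk1 LC replicate 2 (0.0607). The list medians against the wild type were 3.41 in shm1 and 2.84 in glyk1.

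Most heat shock and endoplasmic reticulum genes that passed were lower in shm1. Of 19 heat shock genes 6 were lower and 1 was higher, a share near that of all loci, with a median of -0.23 that ran from -0.90 to 0.62 over the alternatives. HSFA3, a heat shock factor, was at 2.13 and 3.82 CPM in shm1 and at 53.6 and 51.7 CPM in glyk1 (difference -4.14, SE 0.48, adjusted p = 2.14e-05), and HSFA2 at 34.7 and 26.1 CPM against 195 and 116 CPM (difference -2.35, adjusted p = 0.00361). For both factors all 4 mutant libraries were above the wild-type means of 1.57 and 1.37 CPM. Of 13 genes of the endoplasmic reticulum, 4 were lower and 0 higher (median -1.49). The share called, 30.8%, is below the 38.2% of all loci. BIP2, its main Hsp70 chaperone, was at 36.0 and 26.7 CPM against 262 and 296 CPM (difference -3.15, adjusted p = 0.00513). Without shm1 LC replicate 2 the number called was 0, and BIP2 had adjusted p = 0.0542.

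Transcription factors of the WRKY family split, 12 of 53 being higher in shm1 and 7 lower (a share near that of all loci, median 0.10, from -0.17 to 0.22 over the alternatives). WRKY6, a factor of senescence and defence, was at 607 and 702 CPM in shm1, at 221 and 150.4 CPM in glyk1 and at 10.5 ± 3.74 CPM (SD, n = 3) in the wild type. All 4 mutant libraries were above the wild type, and shm1 was above glyk1 (difference 1.83, SE 0.38, adjusted p = 0.00167). WRKY22, a factor of early defence, was at 2.79 and 5.33 CPM against 76.6 and 141 CPM (difference -4.75, adjusted p = 0.000146), and WRKY25 differed by -2.41 (adjusted p = 0.000368). Fewer of the family passed without shm1 LC replicate 2 or glyk1 LC replicate 2, 11 in each case.

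The senescence, sugar starvation and abscisic acid lists held calls in both directions. Of 9 senescence genes 1 was higher (WRKY6) and 1 lower (SAG101), although the median was 1.92. The share called, 22.2%, is below the 38.2% of all loci. SAG13 was at 2386 and 3108 CPM in shm1 and at 210.1 and 313 CPM in glyk1 and did not pass (difference 3.40, SE 1.5, adjusted p = 0.0858). It passed with the replicate number as a block (adjusted p = 0.0465, and 0.0450 with crossed numbers) and with only the compared groups in the fit (0.0067). Of 16 starvation genes 3 were higher and 2 lower, a share of 31.25% that is also below that of all loci. TPS9, a trehalose phosphate synthase-like protein, was at 36.4 and 41.7 CPM against 8.54 and 7.83 CPM (difference 2.26, SE 0.53, adjusted p = 0.00391). The starvation count was 1 without shm1 LC replicate 2, 3 without glyk1 LC replicate 1 and 2 without its replicate 2. Of 18 abscisic acid genes 2 were higher and 5 lower, a share near the 38.2% of all loci, and among them ABF4, a bZIP factor, was at 86.2 and 135 CPM against 33.8 and 30.1 CPM (difference 1.72, adjusted p = 0.000144, and 0.0949 with all rows as deposited). COR47, a dehydrin, was lower in shm1 (log2 difference -2.43, adjusted p = 0.00429). The abscisic acid count was 3 without shm1 LC replicate 2, 4 without glyk1 LC replicate 1 and 3 without its replicate 2.

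Anthocyanin genes did not follow PAP2, and the share of the list called, 35.3%, is near the 38.2% of all loci. Of 17 genes 2 were higher in shm1 (PAP2 and the repressor MYBL2) and 4 were lower, among them PAL1, the entry enzyme, at 106 and 30.0 CPM against 486 and 416 CPM (difference -2.72, adjusted p = 0.00753, and 0.0746 without shm1 LC replicate 2). The MYBL2 difference of 1.5 was lost without shm1 LC replicate 2 (adjusted p = 0.122) or glyk1 LC replicate 2 (0.144). The late enzyme DFR, made under such myb factors, was at 0.484 and 0.408 CPM in shm1 and at 0 and 0.747 CPM in glyk1 and did not pass (adjusted p = 0.926). Without shm1 LC replicate 2 the count over the list was 1. Of 12 clock genes 2 were higher and 1 lower, and the share called, 25%, is below the 38.2% of all loci. RVE8, a morning factor, was at 20.8 and 32.8 CPM in shm1 and at 3.75 and 4.29 CPM in glyk1 (difference 2.66, SE 0.37, adjusted p = 0.000104, and 0.0538 with all rows as deposited). The labels give 8 h of light for all samples, and the cause of the RVE8 difference was not tested.

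Against the wild type in LC both lines differed at more loci than from each other, 13488 (66.3%) in shm1 and 11324 (55.7%) in glyk1. Of all loci tested, 33.3% were higher and 33.1% lower than in the wild type in shm1, and 26.9% were higher and 28.8% lower in glyk1. These comparisons share the wild-type libraries, so their values are only set side by side. The median over the photosystem genes was -3.06 in shm1 and -0.74 in glyk1, over the Calvin-Benson genes -2.64 and -0.51, and over the plastid ribosomal genes -3.44 and -0.87. For the 16 glycine to serine genes, with SHM1 included, it was -1.34 in shm1, where 10 were lower than in the wild type and 4 higher. In glyk1 it was 0.082, where 5 were lower and 4 higher, shares near those of all loci. In these lists the shm1 median was the lower one. In the XTH family the medians of -0.87 and 2.04 lay on opposite sides of the wild type. The family was split in shm1, where 7 of 22 genes were higher than in the wild type and 9 lower. In glyk1 11 were higher and 4 lower. For cysteine and tryptophan synthesis they were 3.53 and 1.8, both above the wild type.

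**Figure D5:**
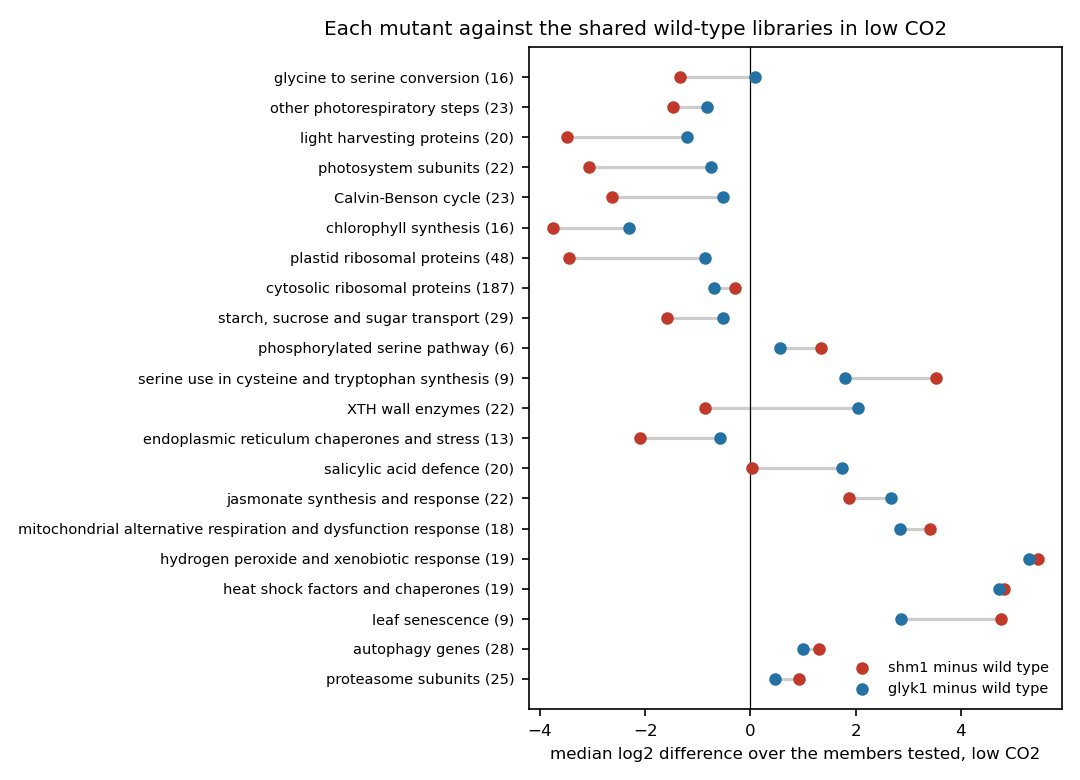
Median log2 difference from the wild type in low CO2 over the tested members of selected gene lists, for shm1 (red) and glyk1 (blue), with the number of members in brackets. Both sets of values share the same wild-type libraries, and the lines lie far apart for light harvesting proteins (-3.49 and -1.20) and close together for heat shock genes (4.82 and 4.73).

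In HC the photosynthesis, plastid ribosome and XTH lists showed no such separation. Of the lists described here, only those holding SHM1 and GLYK had a member called in HC. The HC medians were -0.33 for the antenna, -0.13 for the Calvin-Benson cycle, 0.046 for the plastid ribosome and 0.025 for the XTH family, against -0.080 over all loci. Larger HC medians, opposite in sign to those in LC, were 0.60 for jasmonate, 0.46 for salicylic acid and 0.42 for the epidermal markers. The LC difference minus the HC difference passed towards lower values in shm1 for 12 of 22 photosystem genes, 11 of 23 Calvin-Benson genes, 25 of 48 plastid ribosomal genes and 6 of 20 antenna genes, beside 8.56% of all loci. Towards higher values it passed for 0, 1, 4 and 0 genes of these lists, beside 9.78% of all loci. It passed for TCH4 (-7.69, SE 0.74, adjusted p = 4.09e-05), GPDHC1 (5.64, SE 0.60, adjusted p = 0.000102) and PSAT1 (2.72, SE 0.60, adjusted p = 0.00652). It did not pass for GSTU25 (6.27, adjusted p = 0.0865) or XTH18 (-5.70, adjusted p = 0.0860), whose HC levels were at most 0.0545 and 0.173 CPM. XTH18 passed without shm1 LC replicate 1 (adjusted p = 0.0232) and with DESeq2 (0.000717). GSTU25 passed with DESeq2 (adjusted p = 0.0198), with only the compared groups in the fit (0.0410) and with the replicate block (0.0497).

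Markers of other cell types were looked at beside these groups. Over 5 guard cell markers, whose summed level was 81.3 and 85.0 CPM in shm1 and 88.9 and 65.4 CPM in glyk1, 0 passed. Of 5 epidermal markers 2 were lower in shm1, with summed levels of 44.0 and 35.1 CPM against 105 and 92.8 CPM. The share called, 40%, is near the 38.2% of all loci. Of these 2 the larger difference was -1.49 for CER5, a wax exporter (adjusted p = 9.04e-05). The other, ATML1, had -0.80, a call lost in 5 alternatives, among them those without shm1 LC replicate 2 (adjusted p = 0.248), glyk1 LC replicate 1 (0.0974) and glyk1 LC replicate 2 (0.130). Of 4 phloem markers 1 was higher, the sucrose transporter SUC2 by 0.87 (adjusted p = 0.0273), with sums of 429.8 and 491 CPM against 421 and 331 CPM. The SUC2 call was lost in 5 alternatives, among them those without shm1 LC replicate 2 (adjusted p = 0.180) and glyk1 LC replicate 2 (0.206). Of the 4 root markers RSL4, PLT1 and IRT1 were at 0 in all 4 libraries and EXPA7 reached 0.0330 CPM. The 4 floral markers summed to at most 0.566 CPM in any library, with AP3 at 0 in glyk1. Of 4 markers of dividing cells 1 was higher and 1 lower, with sums from 1.8 to 3.06 CPM in shm1 and from 2.09 to 2.53 CPM in glyk1. The share called was 25% of the phloem markers and 50% of the dividing cell markers, beside 38.2% of all loci. The part of the lower epidermal marker levels in the other results was not tested. Of 12 genes often used as references, 1 was lower (ACT8, -1.23) and 1 higher (YLS8, 0.72). The YLS8 call was lost without shm1 LC replicate 2, where the difference was 0.51. The share called, 16.7%, is below the 38.2% of all loci, and ACT2 and SAND had -0.17 and 0.24 and did not pass.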

How the data were processed

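RNA from mature leaves was sequenced as poly(A) libraries with a kit that does not mark the strand, so overlapping and antisense genes cannot be told apart. The deposited table holds raw counts per locus, made by the authors. Per the submitters' processing notes CASAVA 1.8, edgeR and the builds TAIR9 and TAIR10 were used, and no aligner is named there. Per the labels some libraries were read single-end and others paired-end on different instruments, without saying which. The RPKM, log2 ratio and q-value columns that the authors deposited were not used. Of 25680 loci, 25479 were in the RefSeq TAIR10.1 annotation used for names and positions.

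Counts were scaled by TMM and fitted with edgeR 4.0.16 (R 4.3.3) as 10 group means over 22 libraries, with the quasi-likelihood test, filterByExpr and Benjamini-Hochberg adjustment over the 20336 loci tested. In the third wild-type LC library 4915 rows (19.1%) had counts displaced by up to 10 rows, recognised by their correlation with the other libraries, and the 3613 tested loci concerned were fitted over 21 libraries. The fitted contrasts were shm1 minus glyk1 in LC, the same in HC, their difference, and each mutant against the wild type in LC. Bounds use a floor of 3 counts over a group and, like CPM, cover counting error only.

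Alternatives were DESeq2 size factors, DESeq2 1.42.0, no filter, smaller fits, the table as deposited, a replicate block, thinning of the deepest library to 65282092 counts and leaving out each library. The test was run on simulated counts before use. Replicate numbers are shared between the groups but were not shown to pair the samples.

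Named genes were SHM1, GLYK, all genes of glycine to serine conversion, of the other photorespiratory steps and of the phosphorylated serine pathway, up to 2 called genes per direction and other list with at least 5 CPM, the 12 called genes with a symbol and at least 20 CPM with the largest difference in each direction, and 6 per direction of the LC minus HC test. Named as examples after their values were seen were ALD1, AOC2, AOX1A, AOX1B, APX1, ASA1, AT1G51580, ATG8B, DFR, EDS1, FMO1, FSD1, GLT1, GSTU24, LOX3, NDB3, NPR1, OPR3, ORA59, PR1, PRPL11, RBOHD, RPL21C, SAG13, SERAT2;2, SERAT3;2, TKL1, TSA1, WRKY22, WRKY25, WRKY38 and XTH29. The comparison, the lists and the motifs were chosen with earlier results of these data known. For genes picked by the size of their difference, a lack of overlap between the lines follows largely from that choice.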

Additional observations from a re-analysis of the deposited data

Results flagged for a closer look

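The difference between shm1 and glyk1 depended on CO2, by the test of the LC difference minus the HC difference (edgeR's quasi-likelihood test with Benjamini-Hochberg adjustment), at 1988 loci in the direction of shm1 and at 1741 in the direction of glyk1. Towards shm1 the genes singled out were NIT4 (6.06 log2), GPDHC1 (5.64), the aldehyde oxidase AO1 (5.58), CYP81D11 (5.42), BRU6 (5.10) and OFP2, an ovate family protein (5.0). OFP2 was at 79.0 and 174 CPM in shm1 LC and at 11.8 and 2.2 CPM in glyk1 LC. Its call was lost without shm1 LC replicate 2 (adjusted p = 0.0519) or shm1 HC replicate 1 (0.0558). BRU6 was at 81.1 and 74.2 CPM in shm1 LC and at 6.85 and 6.65 CPM in glyk1 LC, and its call (adjusted p = 0.0412) was lost without any one of 7 libraries, with the highest adjusted p, 0.306, without glyk1 HC replicate 2. The CYP81D11 call was lost without shm1 HC replicate 2 (adjusted p = 0.0502), glyk1 HC replicate 1 (0.0804) or its replicate 2 (0.0969), and with all rows as deposited (0.238).

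Towards glyk1 they were the wall genes ATPMEPCRB (-8.33), XTH19 (-8.26), XTR6 (-8.02), TCH4 (-7.69), EXO (-7.62) and EXLA1 (-7.31). The calls for XTH19 and XTR6 were lost without shm1 HC replicate 1 (adjusted p = 0.136 and 0.153). No group compared had enough libraries for single libraries to be screened as outlying.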

How the results depend on the processing

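The number of loci called between shm1 and glyk1 in LC ran from 4569 to 6986 when 1 of the 4 libraries was left out, was 5035 with only LC libraries in the fit, and lay between 6179 and 8679 in the other alternatives. In HC it ran from 1 to 4 on leaving out a library, and DESeq2 called 5. For the LC minus HC difference it ran from 1787 to 4162 on leaving out a library and from 2562 to 5398 otherwise. The median of that difference over all loci was 0.075 with TMM and -0.085 with DESeq2 size factors. With the replicate number as a block 8376, 4 and 4250 loci passed in LC, in HC and for their difference, and replicate deviations correlated at -0.36 between the lines in LC and -0.16 in HC, so the numbers give no sign of pairing. With the glyk1 numbers crossed, an alternative added after seeing the data, the counts were 8621, 3 and 4473. Counts against the wild type were not recomputed under the alternatives.

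Of 191 named values 160 were called, and 102 of these kept the call in every alternative that gave an adjusted p. The sign turned for 9, and none of these had passed. On leaving out a library GGT1 ran from -0.32 (shm1 LC replicate 2) to 0.41, and was at -0.0065 without glyk1 LC replicate 2. Without glyk1 LC replicate 1 PSAT2 was at 0.15 (-1.56 at the other end) and DFR at -0.72 (7.42), and without glyk1 LC replicate 2 PR1 was at 6.59 (-2.44). Without shm1 LC replicate 1 SHM4 was at -0.0068 (0.47) and CAT2 at 0.098 (-0.54). SHM5 was at -0.013 with DESeq2 size factors, -0.016 with DESeq2, -0.049 with the block, -0.094 without shm1 LC replicate 1 and -0.85 without glyk1 LC replicate 1 (3.49). PGDH1 was at 0.031 with the block, 0.13 without shm1 LC replicate 2 and 0.92 without glyk1 LC replicate 1 (-0.58), and GLU1 at 0.15 and 0.11 without replicate 1 of shm1 LC and of glyk1 LC (-0.51). The cause of these turns was not tested.

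The design has 2 libraries per group and 1 allele per line. Of the 7764 loci called in LC, 5861 differed by at least 2-fold. The number of light harvesting genes called, 15 of 20, ran from 7 to 19 over the alternatives. Genes with no count in one line have a bound and no size.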

Other observations

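Phosphate starvation genes, a list chosen after its values were seen, went both ways between the lines. Of 22 genes tested, 8 were lower and 2 were higher, while 12 did not pass (median -1.06), beside 38.2% of all loci called. SPX1, a sensor protein that is induced when phosphate is short, was at 19.4 and 16.4 CPM in shm1, at 235 and 271 CPM in glyk1 and at 18.6 ± 5.24 CPM (SD, n = 3) in the wild type. The shm1 libraries were near the wild type and the glyk1 libraries far above it, with a difference between the lines of -3.81 (SE 0.35, adjusted p = 3.89e-06, edgeR's quasi-likelihood test). PS2, a phosphatase gene induced by phosphate starvation, was at 1.73 and 1.32 CPM in shm1 and at 67.1 and 39.9 CPM in glyk1 (difference -5.11, adjusted p = 7.68e-06). SRG3, a glycerophosphodiester phosphodiesterase gene, was at 19.4 and 30.5 CPM against 903 and 789.6 CPM (difference -5.08, adjusted p = 6.58e-05). SQD1 and SQD2, which make the sulfolipid that can stand in for phospholipids, had -2.96 and -2.71, and MGD2, a galactolipid synthase, -2.54. For SQD1 the wild type, at 85.7 CPM, lay near glyk1 and not near shm1, unlike SPX1. The 2 that were higher were the transporters PHT1;5 (2.23) and PHO1;H1 (2.64). The median against the wild type was 0.61 in shm1 and 2.00 in glyk1. The LC difference minus the HC difference passed for 8 of the 22 genes towards glyk1 and for 2 towards shm1. Over all loci that test passed for 8.56% towards glyk1 and 9.78% towards shm1. As the list was chosen after its values were seen, these counts add no support.

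Tau glutathione transferases, also taken as a family after values were seen, went the other way. Of 24 tested, 10 were higher in shm1 and 2 were lower (median 1.51, from 1.16 to 1.78 over the alternatives). The share called was 50%, beside 38.2% of all loci, of which 18.9% were higher and 19.3% lower. Because the family was taken after its values were seen, its share adds no support. The summed level was 11227 and 15134 CPM in shm1 and 4296 and 2772 CPM in glyk1. GSTU19 was at 4192 and 5794 CPM in shm1 and at 1713 and 1195 CPM in glyk1 (log2 difference 1.79) and GSTU22 at 23.8 and 42.1 CPM against 1.61 and 0.556 CPM (4.92), while GSTU26 and GSTU27 had -1.97 and -1.61. Against the wild type the family median was 6.05 in shm1 and 3.91 in glyk1.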
